A study of Mus musculus with 2 samples.

Results

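The cells described here were excitatory neurons of the embryonic brain at E11.5 that carried Slc17a6 and fell outside the gates set for the inhibitory neurons, the Barhl1/Atoh1/Evx1 neurons and the sensory ganglion neurons of the same libraries. A cell was taken when it held at least 3 UMIs over Elavl3 and Stmn2 together, at least 1 UMI of Slc17a6, 0 UMIs over Gad1, Gad2 and Slc32a1, at most 1 UMI over Barhl1, Atoh1 and Evx1, at most 1 UMI over Prrx1, Prrx2 and Twist1, 0 UMIs of Sox10, and not both Isl1 and Pou4f1. UMIs are molecular tags, so a UMI count stands for transcript molecules rather than reads. This gave 412 neurons among 11212 kept cells, 145 in the control library and 267 in the mutant library. The gate genes chose the cells, so their values are a description, and every comparison between the libraries was made over the other genes.

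The cells came from mouse heads cut below the second pharyngeal arch and were sorted for GFP. Control embryos were wt/flox at both Tfap2a and Tfap2b, and mutant embryos were flox/flox at both. All embryos were mTmG/mTmG at r26 and Wnt1CRE positive, so the control cells also carried 1 floxed copy of each gene. Each library pooled 2 embryos of mixed genetic background, and each group had 1 library. The difference between embryos could therefore not be measured, no test was made, and every interval given here is a 95% interval that covers counting error only.

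Slc17a6 encodes VGLUT2, the transporter that loads glutamate into synaptic vesicles of most early excitatory neurons of the brainstem, midbrain and diencephalon. Wnt1:CRE acts in the neural crest and also in the dorsal neural tube and midbrain, so a sort for its reporter collects brain neurons beside crest derivatives. In the brainstem and spinal cord, neuron types are laid down by combinations of homeodomain factors, among them the LIM factors Lhx1, Lhx5, Lhx2 and Lhx9, while Hox genes and Otx2 mark position along the head-to-tail axis. Robo3 is a receptor of the Robo family that is known for allowing commissural axons to cross the midline. Tfap2a and Tfap2b, the deleted AP-2 transcription factors, are best known from the neural crest and from inhibitory interneurons of the spinal cord and cerebellum.

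The libraries were of like depth. After filtering, 5625 control and 5587 mutant cells were kept, and 5 barcodes occurred in both libraries. The selected neurons had a median of 11522 UMIs in the control and 11317 in the mutant, with sums of 1838468 and 3424773 UMIs. Xist was counted in 145 of 145 control neurons and 1 of 267 mutant neurons, and any of Uty, Kdm5d, Eif2s3y and Ddx3y, on the Y chromosome, in 0 and 211, so the sex of the embryos and their genotype cannot be told apart.

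Markers are given here as a description of the cells. The gate used Elavl3, Stmn2, Slc17a6, Gad1, Gad2, Slc32a1, Barhl1, Atoh1, Evx1, Prrx1, Prrx2, Twist1, Sox10, and Isl1 with Pou4f1. Values that rest on these genes follow in part from the choice of cells and are no check of the label. Stmn2, a tubulin-binding protein of growing axons, stood at 3919 CPM (UMIs scaled to the sum over the selected neurons) in the control and 3703 in the mutant, and Slc17a6 at 259 and 274 CPM. In mesenchyme cells of the same libraries, defined by at least 3 UMIs over Prrx1, Prrx2 and Twist1 and none of Elavl3 or Stmn2, Slc17a6 was at 0.159 and 0.116 CPM. Markers of other tissues were low: the 12 mesenchyme markers summed to 36.4 and 36.2 CPM, against 1876 CPM in the control mesenchyme, and none of the mesenchyme, blood, endothelium, epithelium or roof plate markers reached the 100 UMIs needed to be compared. Ganglion markers were few, with 2 or more UMIs over a set that included Isl1, Avil and Prph in 14 control and 23 mutant neurons, 9.66% and 8.61%. The same sum was reached by 29.9% and 36.5% of mesenchyme cells, and 2 or more UMIs of Isl1 alone were in 2 and 7 neurons. The 17 ganglion markers summed to 194 and 164 CPM, against 1457 CPM in the control neurons with Isl1 and Pou4f1.

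The Slc17a6 threshold was the weakest edge of the gate. It was passed with a single UMI by 39 control and 73 mutant neurons, while 361 control and 563 mutant cells failed on 0 UMIs of Slc17a6 alone. The count of 412 is therefore a count of neurons in which the transcript was detected, not of all excitatory neurons. At the threshold on Barhl1, Atoh1 and Evx1, 30 control and 44 mutant neurons were kept with 1 UMI, and 20 cells in each library were lost with 2. A single UMI of the inhibitory genes removed 3 control and 4 mutant cells.

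Robo3, the third marker given for these neurons, was not used by the gate. The 250 bases before its start site, in GRCm38.p6 at chr9:37433176-37433425 on the minus strand, are shown from 5′ to 3′ because Robo3 and the LIM factors described next were found in the same cells, and LIM homeodomain proteins are known to bind sites with a TAAT core. Capitals mark TAATTA, searched as these letters, which read the same on both strands.
Robo3: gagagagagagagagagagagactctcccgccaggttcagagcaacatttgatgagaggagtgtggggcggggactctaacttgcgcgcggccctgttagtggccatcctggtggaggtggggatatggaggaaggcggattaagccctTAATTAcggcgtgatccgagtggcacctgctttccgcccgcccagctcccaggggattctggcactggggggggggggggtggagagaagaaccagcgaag

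The motif begins 101 bases before the start site. It was found in 5.29% of 32851 promoter windows of RefSeq that run from 250 bases before to 50 bases after a start. One of 2 windows of Slc17a6 held it, as did the window of Uncx, a homeobox gene of the majority of these neurons, in 2 copies, which 0.490% of windows had. No window of Cntn2, Rgmb, Lhx2 or Epb41, genes whose pattern over the neurons was among the most like that of Robo3, held the motif. A match is a run of letters and not a measured binding site.

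Robo3 was found in a part of the neurons. It had 0 UMIs in 75 control and 144 mutant neurons and 10 or more in 36 and 63, and 2 or more were counted in 43.4% of control and 41.9% of mutant neurons. No mesenchyme cell had 2 or more, at median depths of 14708 and 14778 UMIs. Among positive neurons the median was 11 UMIs in both libraries. With every neuron thinned to 7000 UMIs, which left out 9 control and 24 mutant neurons, the shares were 40.4% and 41.2%. A single UMI was found in 7 and 11 neurons, and the other neurons held intermediate counts.

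Its presence went with the LIM factors. With 2 UMIs as the mark of a positive cell, 82 control and 141 mutant neurons (56.6% and 52.8%) had Lhx2 or Lhx9 without Lhx1 or Lhx5. Only Lhx1 or Lhx5 was found in 34 and 66 neurons (23.4% and 24.7%), both pairs in 8 and 16, and neither in 21 and 44. Of mesenchyme cells, 0.249% and 1.15% reached this mark for Lhx2 or Lhx9 and 0.0312% and 0.0920% for Lhx1 or Lhx5. Robo3 was present in 60.0% of control and 61.1% of mutant neurons with Lhx2 or Lhx9, and in 16.4% and 14.5% of those without. In the plot of single cells, the majority of neurons lie along one axis or the other. The levels showed the same, with Robo3 at 598 and 606 CPM in the Lhx2/9 neurons and 164 and 62.6 CPM in the Lhx1/5 neurons. Of the 73 control UMIs of Robo3 in the Lhx1/5 neurons, 44 were in 1 cell that also had 69 UMIs of Lhx1 and Lhx5. That cell held 43113 UMIs, the most of any selected neuron. Neurons with both LIM pairs were also deep, with medians of 20154 control and 18136 mutant UMIs, against 11213 and 11677 in the Lhx2/9 neurons. The part of depth in these double-positive cells was not tested.

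**Figure D1:**
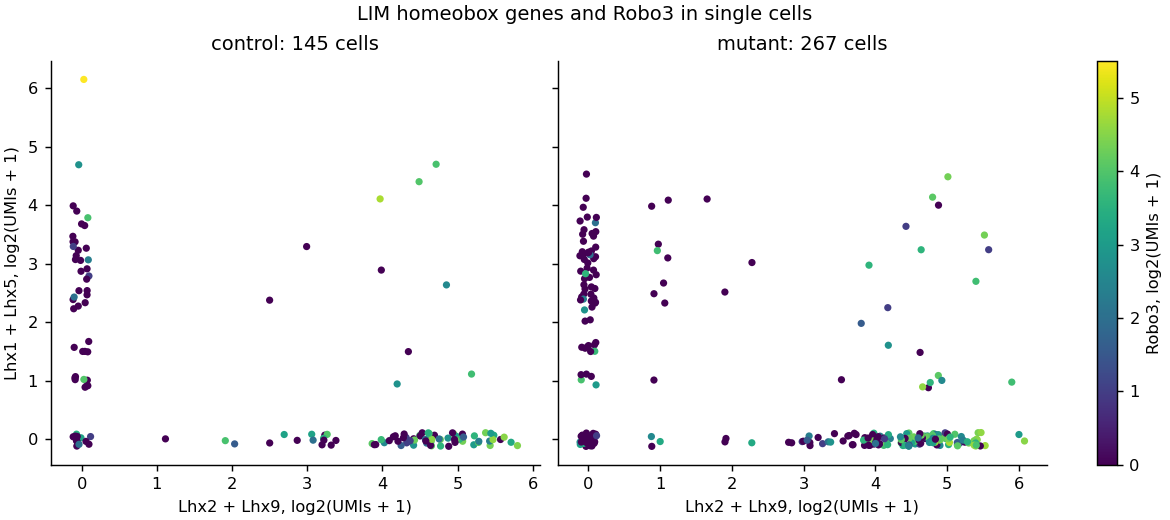
Each point is 1 neuron, placed by its Lhx2 plus Lhx9 UMIs (horizontal) and its Lhx1 plus Lhx5 UMIs (vertical), both as log2(UMIs + 1) with a small random shift, and coloured by Robo3 on the same scale. In the 145 control and 267 mutant neurons, few points leave the axes, and high Robo3 lies mainly on the Lhx2/9 axis.

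Other homeobox genes kept to one side. Barhl2, a factor of dorsal and diencephalic neurons, reached 2 UMIs in 48.9% (control) and 52.9% (mutant) of neurons with Lhx2 or Lhx9 and in 0.0% of those without in either library. Evx2, a V0-type homeobox factor, was in 22.2% and 22.9% against 0.0% and 0.9%. Dbx1, a progenitor homeobox gene of the intermediate neural tube, was in 24.4% and 21.7% against 0.0% and 1.8%. Tfap2d, an AP-2 gene that was not deleted, had 111 and 138 CPM in Lhx2/9 neurons and 0 and 1.20 CPM in Lhx1/5 neurons. Crabp1, a cytoplasmic binding protein for retinoic acid, stood at 11277 and 12307 CPM on the Lhx2/9 side and 738 and 644 CPM on the other. The same held for Tcf7l2, a transcription factor of Wnt signalling, with 509 and 423 against 4.50 and 15.6 CPM.

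The Lhx1/5 neurons had their own set. Nkx6-2, a homeobox factor of the ventral neural tube, was in 38.1% of control and 46.3% of mutant neurons with Lhx1 or Lhx5 and in 3.9% and 3.2% of the rest. Otp or Sim1, factors of hypothalamic and V3-type neurons, were in 45.2% and 53.7% against 7.8% and 2.2%. This rested mainly on Sim1, with 2 or more UMIs in 25 control and 44 mutant neurons, against 3 and 4 for Otp. Otp had 21 control and 37 mutant UMIs in the Lhx1/5 neurons, and 40 and 1 in neurons with neither LIM pair. Foxa2, a forkhead factor of the floor plate and ventral midbrain, was at 103 and 165 CPM against 8.21 and 1.65 CPM in Lhx2/9 neurons. The peptide gene Cartpt was at 245 and 285 against 13.3 and 28.0 CPM. Pou4f1, a POU factor of midbrain and sensory neurons, was in 23.3% and 22.3% of neurons with Lhx2 or Lhx9 and 29.1% and 23.6% of those without, but its level was 222 and 226 CPM in the Lhx2/9 neurons and 110.2 and 83.0 CPM in the Lhx1/5 neurons. The Onecut genes were in 91.7% and 92.5% of all selected neurons, and Uncx in 71.0% and 70.0%.

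Smaller groups carried markers of other known types. Tlx3 or Drgx, factors of dorsal excitatory neurons, were in 13 control and 19 mutant neurons. Lmx1a or Lmx1b, factors of dorsal and midbrain neurons, were in 10 and 27. The peptide gene Sst was in 28 and 44 neurons. All differences between the libraries in these shares had intervals that included 0. Among the marker shares plotted, that of the Hox list had an interval of the difference without 0, and it is described with the Hox genes.

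**Figure D2:**
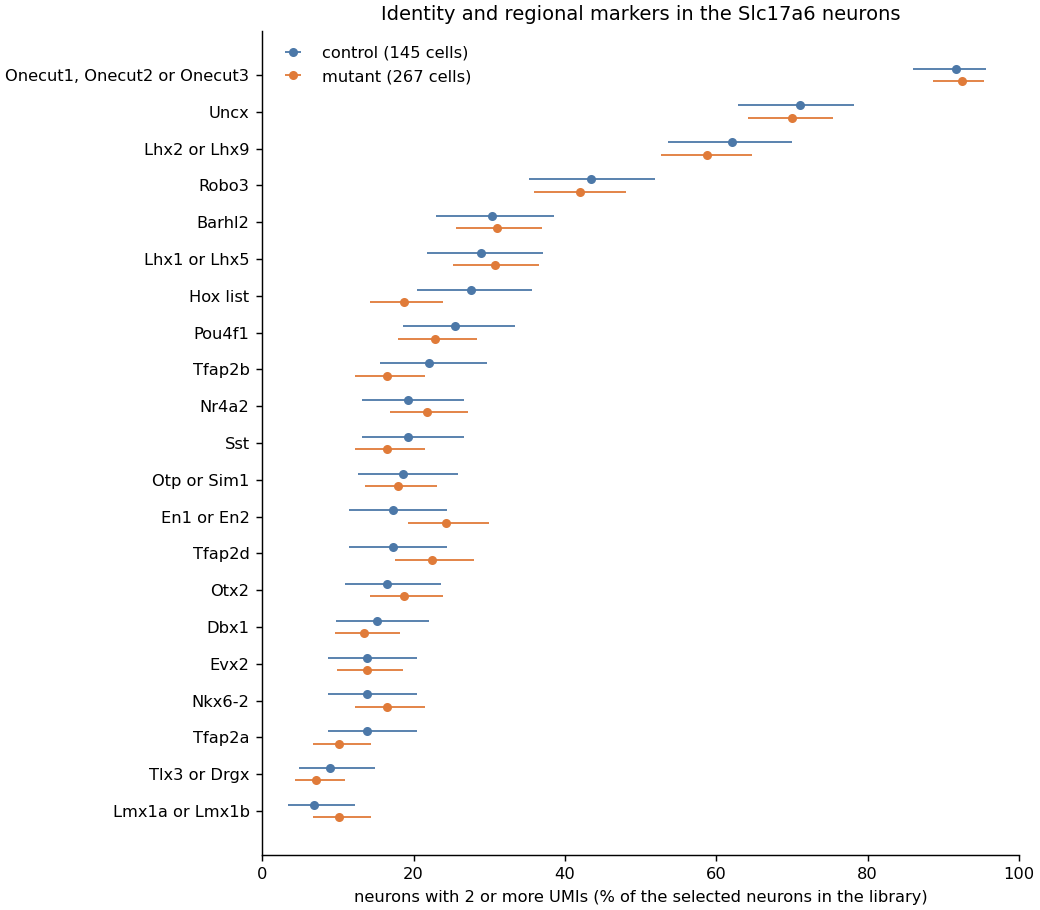
Share of the selected neurons with 2 or more UMIs of each marker or marker group (percent, horizontal), in the control (145 cells) and the mutant (267 cells). Points are shares and bars are exact 95% intervals of counting error. The Hox list is 27.6% against 18.7%, while Uncx, Robo3 and both LIM pairs lie within each other's bars.

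Robo3 was also used to look for genes with a like pattern, ranked by Spearman's correlation of log CPM over the neurons within each library and then averaged. Among the highest were Rgmb (0.681), Cntn2 (0.651), Lhx2 (0.585) and Gm26872 (0.584). Rgmb is a co-receptor of BMP signalling in the repulsive guidance molecule family, and Cntn2 encodes TAG-1, an adhesion molecule of commissural axons. Both libraries gave near values for Rgmb, 0.681 over 145 neurons and 0.682 over 267. These neurons share a library and differ in depth, so the values are a description.

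Set beside the other neurons of the same libraries, the selected neurons held more Onecut2, at 1170.0 CPM in the control against 478 in the Gad neurons (those with a UMI of Gad1, Gad2 or Slc32a1) and 546 in the Barhl1/Atoh1/Evx1 neurons (2 or more UMIs over those genes). These other kinds could share cells with each other. Lhx1, at 141 CPM in the selected neurons, was at 876 CPM in the Gad neurons and 67.5 in the Barhl1/Atoh1/Evx1 neurons. Lhx2 was at 648 CPM against 71.0 and 761. Tfap2d was at 61.5 CPM against 0.717 and 10.6. In the mutant the order of the 3 kinds of neuron was the same for each of these genes. Robo3 was not particular to the selected neurons, with 409.6, 314 and 271 CPM in the control.

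The first comparison asked how many of these neurons each library held. They made up 2.58% of kept cells in the control (2.18 to 3.03) and 4.78% in the mutant (4.23 to 5.37), a difference of 2.20 percentage points (1.5 to 2.92). The whole population of cells that passed the neuron thresholds grew in the same way, from 900 to 1396 cells, while mesenchyme cells went from 57.1% to 38.9%. Among neurons alone, the selected cells were 16.1% (13.8 to 18.7) in the control and 19.1% (17.1 to 21.3) in the mutant, and the interval of this difference, -0.26 to 6.20 points, included 0. The Gad neurons were 12.3% and 19.2% of neurons, and the Isl1 with Pou4f1 neurons 10.6% and 2.22%. A share of sorted cells depends on every other cell type in the sort. When every kept cell was thinned to 7000 UMIs before the gate, the difference was 1.47 points.

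The deleted genes were examined first. Tfap2b had 652 UMIs in the control neurons (355 CPM) and 526 in the larger number of mutant neurons (154 CPM), a log2 ratio of -1.21 (-1.38 to -1.04). Tfap2a had 114 and 131 UMIs, 62.0 and 38.3 CPM, with a log2 ratio of -0.70 (-1.07 to -0.32). Tfap2d, which was not targeted, had 61.5 and 75.3 CPM and a log2 ratio of 0.29 (-0.03 to 0.63), and Tfap2c and Tfap2e had 2 and 0 UMIs in the control and 10 and 3 in the mutant. A 3′ library counts transcript ends, so these values do not show whether the transcripts came from a recombined allele.

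Tfap2b was restricted to a minority of neurons. It reached 2 UMIs in 32 control neurons (22.1%, 15.6 to 29.7) and 44 mutant neurons (16.5%, 12.2 to 21.5). The level in these cells also differed, with a median of 16 UMIs in the control and 9.5 in the mutant. Mesenchyme cells, which express the gene, reached 2 UMIs in 12.9% and 10.8% of cells. Markers of dorsal neurons were more frequent among the Tfap2b neurons in both libraries. These markers are shared with ganglion neurons, since Pou4f1 with Isl1 set the ganglion gate and Tlx3 is among the ganglion markers. Tfap2b reached 2 UMIs in 66.3% of control and 54.8% of mutant neurons with Isl1 and Pou4f1. Whether some Tfap2b neurons came from ganglia was not tested. Pou4f1 was in 59.4% of control and 56.8% of mutant Tfap2b neurons, against 15.9% and 16.1% of other neurons, and Tlx3 or Drgx in 31.2% and 38.6%, against 2.7% and 0.9%. None had Dbx1 in either library. They also carried Tfap2a, in 53.1% and 47.7%.

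The size of the Tfap2b difference depended on which cells were counted. It was -1.95 (-2.30 to -1.61) in neurons with a Hox UMI and no Otx2, and -1.39 (-1.83 to -0.95) in neurons with Otx2 and no Hox UMI. In neurons with neither it was -0.38 (-0.64 to -0.12). In neurons with both it was -2.10 (-2.84 to -1.40), from only 3 control and 8 mutant neurons. Of these 3 control neurons, 1 held 50 Tfap2b UMIs and the others 8 and 0. Among the Tfap2b neurons, 18 of 32 in the control and 9 of 44 in the mutant carried 2 or more Hox UMIs. With equal weight per cell the ratio was -0.76, and with every neuron thinned to 7000 UMIs it was -0.63. Tfap2a was short of 1.5-fold in 7 of 13 alternatives, and its ratio turned to 0.97 when neurons with any Hox UMI were left out. In the Gad neurons Tfap2b differed by -0.24 (-0.46 to -0.03) and in the Barhl1/Atoh1/Evx1 neurons by 0.19 (-0.09 to 0.46).

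Across all genes the libraries were close. Genes with at least 100 UMIs over the selected neurons of both libraries were compared, 6734 without the gate genes, and a gene was called when it differed by 1.5-fold or more. There were 195 called genes (2.90%), of which 110 were higher in the mutant (1.63%) and 85 lower (1.26%), and the median log2 ratio was 0.00. Of the 195, 4 were Xist and Y-linked genes. For 37 of the lower and 8 of the higher genes, at least 50% of the UMIs in the higher library came from 10 cells. With 1 library per group these are differences between the libraries.

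**Figure D3:**
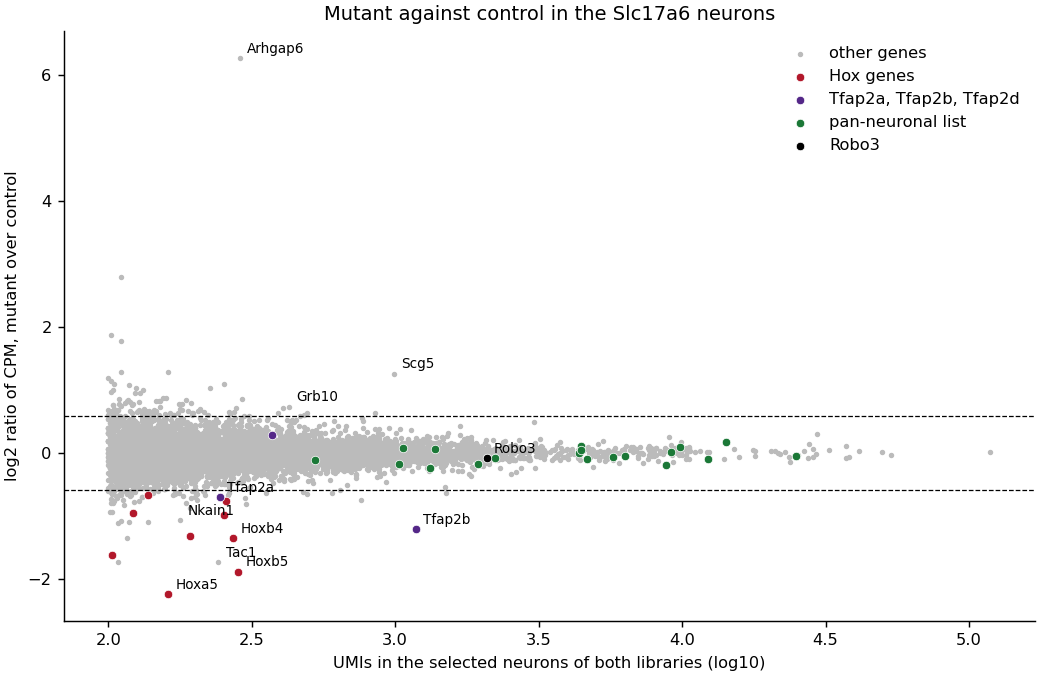
Each point is a gene with 100 or more UMIs, placed by its UMIs in the selected neurons of both libraries (log10, horizontal) and its log2 ratio of mutant over control CPM (vertical). Dashed lines are 1.5-fold; Xist, Y-linked genes and Gm15261 are not drawn. Hox genes and Tfap2b lie below the lower line, while Robo3 and the pan-neuronal list lie near 0.

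All 9 Hox genes that could be compared were lower in the mutant, against 1.26% of all genes, with a median log2 ratio of -1.32 beside a median of 0.00 over all genes. Hox genes are transcription factors laid out in clusters whose order follows their expression along the axis, and those of higher paralogue number are expressed further back. The differences were largest for group 5. Hoxa5 fell from 63.1 to 13.4 CPM (log2 ratio -2.23, -2.76 to -1.73) and Hoxb5 from 102 to 27.7 CPM (-1.88, -2.25 to -1.52). For Hoxb4 the values were 85.4 and 33.6 CPM (-1.35, -1.71 to -0.99), for Hoxb3 70.7 and 35.9 CPM (-0.98, -1.34 to -0.61), and for Hoxb2 66.4 and 39.4 CPM (-0.75, -1.12 to -0.39). Hoxa4 (-1.61), Hoxc4 (-1.32), Hoxd3 (-0.94) and Hoxd4 (-0.67) completed the list.

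These transcripts came from few cells. Hoxb5 was detected in 15 control and 13 mutant neurons, and 10 cells held 89.9% and 95.8% of its UMIs. At least 2 UMIs over the 15 Hox genes of the list were found in 40 control neurons (27.6%, 20.5 to 35.6) and 50 mutant neurons (18.7%, 14.2 to 23.9). For groups 4 and 5 alone these were 27 neurons (18.6%, 12.6 to 25.9) and 24 neurons (8.99%, 5.84 to 13.1), and 0.592% and 0.322% of mesenchyme cells. Over the 15 genes, the share was 23.3% and 22.9% among neurons with Lhx2 or Lhx9. Among neurons without them it was 34.5% and 12.7%, so the difference in share lay in those neurons. The level per positive cell differed as well, since among neurons with 2 or more Hox UMIs the median was 18 UMIs in the control and 13.5 in the mutant, and Hoxb5 still had a log2 ratio of -1.45 (-1.82 to -1.09) in these cells. Hoxb2 in the same cells was at -0.32 (-0.69 to 0.05). By LIM group, Hoxb5 was at -1.01 (-1.45 to -0.58) in the Lhx2/9 neurons. In the Lhx1/5 neurons it was at -6.01 (-9.08 to -4.10), from 69 control and 2 mutant UMIs.

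Otx2, the homeobox gene of forebrain and midbrain, showed no such difference, with 76.7 CPM in the control and 76.2 in the mutant and 2 or more UMIs in 16.6% and 18.7% of neurons. En2, a homeobox gene of the midbrain-hindbrain boundary, was higher in the mutant, 25.0 against 43.2 CPM (0.79, 0.30 to 1.30). When the shares of neurons with Otx2, with a Hox gene, with both and with neither were held at the control values, the Hox median was -0.79, and Hoxb2 (-0.21), Hoxb3 (-0.40), Hoxd3 (-0.36) and Hoxd4 (-0.16) no longer reached 1.5-fold. Hoxa5 and Hoxb5 still did in all 12 alternatives in which they could be computed, with ranges of -2.97 to -1.63 and -3.21 to -0.90. The position of the cut at the neck was not measured and its part was not tested.

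The other neurons of the same libraries give the same genes side by side. In the Barhl1/Atoh1/Evx1 neurons the ratios were -1.38 for Hoxa5, -1.67 for Hoxb5, -0.65 for Hoxb4 and -0.17 for Hoxb2. In the Gad neurons they were 0.09, 0.57, 0.03 and -0.18. Hoxd4 was 1.5 (0.53 to 2.63) in the Gad neurons, from 10 control and 65 mutant UMIs, and -0.67 (-1.17 to -0.16) in the selected neurons. The share of cells with 2 or more Hox UMIs was 133 of 207 and 145 of 290 in the Barhl1/Atoh1/Evx1 neurons and 16 of 111 and 46 of 268 in the Gad neurons.

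**Figure D4:**
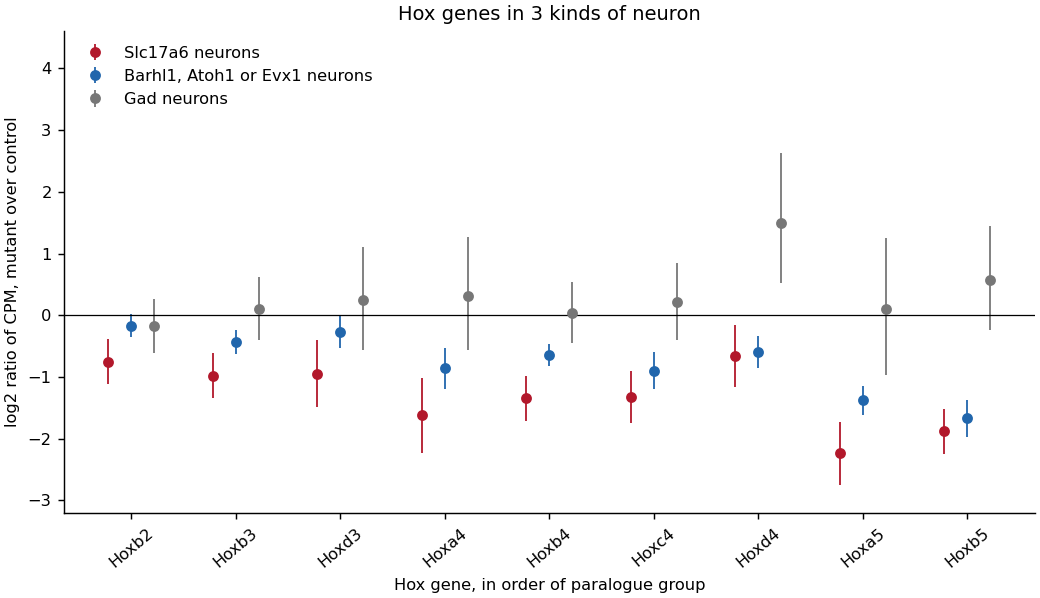
Log2 ratio of mutant over control CPM (vertical) for the 9 Hox genes compared, in order of paralogue group (horizontal), with exact 95% intervals of counting error. In the selected Slc17a6 neurons every gene is below 0, from -0.67 for Hoxd4 to -2.23 for Hoxa5, while in the Gad neurons they run from -0.18 to 1.5.

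Of 63 transcription factors of neuron types, 39 could be compared, with a median log2 ratio of 0.01. Of these, 2 were called higher and 3 lower, where 1.63% and 1.26% of all genes were. Onecut2, the Onecut factor of many early neurons, was at 1170.0 and 1171 CPM (0.00, -0.07 to 0.08). Lhx9 was at 499 and 522 CPM (0.07, -0.05 to 0.18) and Lhx2 at 648 and 549.8 CPM (-0.24, -0.34 to -0.13). Lhx1 was at 141 and 117 CPM (-0.27, -0.50 to -0.04). Uncx was at 454 and 429 CPM (-0.08, -0.21 to 0.04).

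The called factors described here were carried by small groups of cells. Nkx6-2 rose from 68.0 to 104 CPM (0.61, 0.31 to 0.91). Tlx3 fell from 28.3 to 14.9 CPM (-0.93, -1.51 to -0.34) and Otp from 33.2 to 20.4 CPM (-0.70, -1.22 to -0.18). Otp was found in 3 control and 9 mutant neurons. Without the 10 richest cells of each library Tlx3 stood at 2.36, the opposite sign. Nkx6-2 was at 0.19 under a stricter gate of 2 UMIs of Slc17a6 and 10 UMIs over Elavl3 and Stmn2.

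No gene of the lists on axon growth was called. Among axon guidance receptors 0 of 19, among guidance ligands 0 of 16, and among axonal adhesion molecules 0 of 19 were called, and with 2.90% of all genes called, few would be in lists of this size. Their ratios ran from -0.58 to 0.31, from -0.53 to 0.53 and from -0.48 to 0.41. Robo3 was at 409.6 and 388 CPM (-0.08, -0.21 to 0.05), but this pooled value did not hold in every subset. Robo3 was at -0.66 (-0.94 to -0.38) in neurons with a Hox UMI and no Otx2. With Otx2 and no Hox UMI it was at -0.48 (-0.72 to -0.23). By LIM group it was at 0.02 (-0.13 to 0.17) in the Lhx2/9 neurons and 0.20 (-0.39 to 0.81) in neurons with neither pair. In the Lhx1/5 neurons it was at -1.39 (-1.93 to -0.86), where 44 of 73 control UMIs were in 1 cell. Dcc, the netrin receptor, was at 351 and 309 CPM (-0.19, -0.33 to -0.04), Epha5, an ephrin receptor, at 203 and 175 CPM (-0.21, -0.40 to -0.02), and Fzd3, a receptor of Wnt and planar polarity signals, at 193 and 178 CPM (-0.11, -0.30 to 0.08). Of the ligands, Nell2, which binds Robo3, was at 108 and 115 CPM (0.10, -0.15 to 0.35), and Draxin, a repellent that binds Dcc, at 114 and 83.8 CPM (-0.45, -0.71 to -0.18). Cntn2 was at 357 and 293 CPM (-0.28, -0.43 to -0.14) and Ncam1 at 719 and 685 CPM (-0.07, -0.17 to 0.03).

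General neuronal genes had a narrower range. None of the 20 pan-neuronal genes was called, and their ratios ran from -0.23 to 0.17. Tubb3, neuronal beta-tubulin, was at 4856 and 4693 CPM, and the neurofilament gene Nefm at 2498 and 2813 CPM (0.17, 0.12 to 0.22). Of 33 genes of synapse and excitability, Syt13 was called higher (37.5 and 57.5 CPM, 0.62, 0.21 to 1.03) and the potassium channel gene Kcnc1 lower (26.7 and 15.8 CPM, -0.76, -1.34 to -0.17), with a median of 0.14. Syt13 lost the call under 4 other treatments of the cells and Kcnc1 under 2. Genes of stress and dissociation, such as Hsp90aa1 (-0.03) and Jun (0.13), showed 0 of 5 called.

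**Figure D5:**
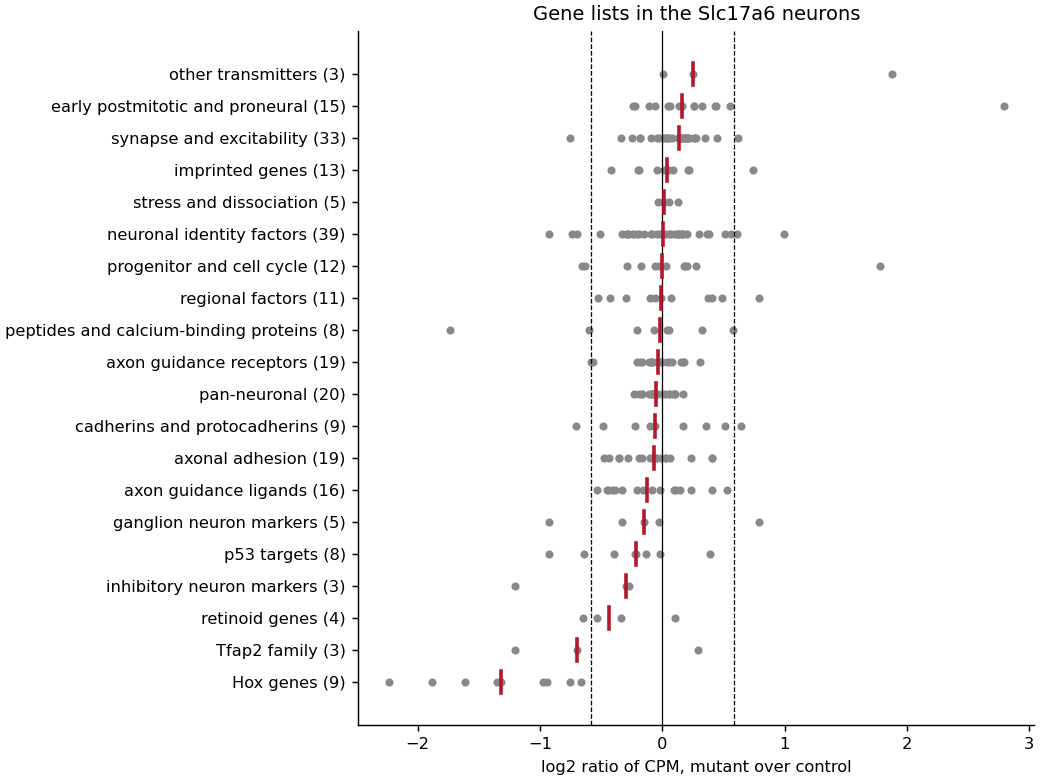
Log2 ratio of mutant over control CPM (horizontal) for the genes of each list with 3 or more genes compared, whose number is given in parentheses. Grey points are genes, red bars medians, and dashed lines 1.5-fold. The Hox median is -1.32, the pan-neuronal median -0.05 and that of the identity factors 0.01.

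Among the genes of the transition from progenitor to neuron, 14 of 15 were within 1.5-fold. Sox11 (-0.06), Sox4 (0.07), Ebf1 (0.04) and Nhlh2 (-0.11), all abundant in young neurons, were among these. Early neurons, with 2 or more UMIs over Nhlh1, Neurod4 and Insm1, were 42.1% of the control and 46.4% of the mutant. Hes5, a Notch target of progenitors, was at 8.16 and 28.0 CPM (1.78, 0.99 to 2.67), with 82.3% of its mutant UMIs in 10 cells. The mitotic genes Top2a (65.3 and 42.0 CPM, -0.63, -0.99 to -0.27) and Cdk1 (29.9 and 19 CPM, -0.66, -1.20 to -0.11) were lower. Top2a was counted in 23 and 22 neurons, but 2 or more UMIs were found in only 7 and 11 (4.83% and 4.12%). These had means of 14.9 and 12.1 UMIs.

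Of 3 transmitter genes compared 1 was called, and of 8 peptide and calcium-binding genes 2, where 2.90% of all genes were. Ddc, the enzyme that makes dopamine and serotonin from their precursors, had 13 UMIs in the control and 89 in the mutant (7.07 and 26.0 CPM, 1.88, 1.03 to 2.84), with 2 or more UMIs in 2 and 15 neurons. Slc18a2, the vesicular monoamine transporter, was at 29.4 and 29.5 CPM and Th at 18.0 and 21.3 CPM. Tac1, the substance P precursor, was at 84.3 and 25.4 CPM (-1.73, -2.13 to -1.34), but 97.4% of its control UMIs were in 10 cells, and without the 10 richest cells of each library its ratio was 1.21. Calb1, a calcium buffer, was at 52.2 and 34.5 CPM (-0.60, -1.0 to -0.20), in 8 and 16 neurons, and lost the call in 5 of 12 alternatives, down to -0.15 with equal weight per cell. Sst was at 204 and 194 CPM (-0.07, -0.25 to 0.12).

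In the remaining lists the called genes are given beside the number compared, with 2.90% of all genes called. Of 4 retinoid genes, 3 were within 1.5-fold, among them Crabp1 at 6737 and 7249 CPM (0.11, 0.07 to 0.14). Grb10, an imprinted adaptor of insulin receptor signalling, was higher at 56.6 and 94.3 CPM (0.74, 0.41 to 1.07), alone among 13 imprinted genes, and kept the call in all 13 alternatives. In the Gad neurons it was at -0.56 (-0.81 to -0.30), short of 1.5-fold. Meg3, an imprinted noncoding RNA, was at 1933 and 2052 CPM (0.09, 0.03 to 0.14). Of 8 p53 targets, Cdkn1a (27.7 and 14.6 CPM, -0.93, -1.52 to -0.33) and Bbc3 (50.6 and 32.4 CPM, -0.64, -1.05 to -0.23) were lower, and Bax was at -0.02. Cdkn1a, a cell cycle inhibitor, had 96.1% of its control UMIs in 10 cells and stood at 2.06 without the 10 richest. The protocadherin genes Pcdh17 (0.65, 0.25 to 1.06) and Pcdh9 (-0.70, -1.04 to -0.37) were called in opposite directions, the others of 9 cadherins not. Of 5 ganglion markers compared, the neurotrophin receptor gene Ntrk2 was higher (0.79, 0.15 to 1.47) and Tlx3 lower, and of 3 inhibitory markers Tfap2b was lower. Neither of 2 glial markers was called.

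Single genes were also ranked over the whole table by the interval bound nearest 0, leaving out genes with 50% or more of their UMIs in 10 cells of the higher library. The 12 highest were Arhgap6, Scg5, Fbxo44, Cwc22, Hccs, Itgb3bp, Grb10, Ext2, Rprm, AA465934, Laptm4b and Dynlt1f. Scg5, the chaperone 7B2 of secretory neurons, was at 98.5 and 236 CPM (1.26, 1.02 to 1.5), in 98 control and 242 mutant neurons. Fbxo44, part of a ubiquitin ligase, was at 27.7 and 59.0 CPM (1.09, 0.64 to 1.56). Both differed in all other kept cells together too, by 2.03 and 1.64. Ext2, an enzyme of heparan sulphate synthesis, was at 13.1 and 27.4 CPM (1.07, 0.41 to 1.78), against 0.13 in all other kept cells.

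Arhgap6, a GTPase-activating protein, had 2 UMIs in the control and 286 in the mutant, in 2 and 154 neurons (6.26, 4.4 to 9.31), and differed by 6.11 in all other kept cells. It lies on the X chromosome at 168795099 to 169304435 (GRCm38, plus strand). Hccs, at 169250193 to 169320372 on the minus strand, overlaps it at one end and was at 36.4 and 66.0 CPM (0.86, 0.46 to 1.27). Gm15261, a gene model on the minus strand within Arhgap6 that was picked after its values were seen, had 0 and 558 UMIs. Whether the counting used strand was not given in the sources used here, so reads of overlapping genes cannot be assigned to one of them with certainty. The 3 genes differ between libraries of unlike sex.

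The lowest included Nkain1, Prkd3, AU040320, Cap1, Bok, Scrt2, Pcdh9, Clcn6, Eif2s3x, Pid1 and Slc38a10. Nkain1, which binds the sodium pump, was at 51.1 and 24.5 CPM (-1.06, -1.50 to -0.62), and Bok, a member of the Bcl-2 family of cell death regulators, at 51.7 and 28.3 CPM (-0.87, -1.29 to -0.44). In all other kept cells these were at -0.14 and -0.11. Scrt2, a zinc finger repressor of newly born neurons, was at 149 and 95.8 CPM (-0.64, -0.87 to -0.40) in the selected neurons and at 0.40 in all other kept cells. It was lower in early neurons (-1.02, -1.33 to -0.72) and -0.16 (-0.54 to 0.23) in later ones, and at -0.38 once neurons with ganglion markers were left out. The X-linked Eif2s3x, a translation initiation factor, was at -0.61 in the selected neurons and -0.60 in all other kept cells.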

How the data were processed

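Single-cell RNA-seq was made from 2 libraries, 1 control and 1 mutant. Per the labels and methods, the authors used 10x Chromium 3′ chemistry and Cell Ranger (6.0.0 in the file headers) with mm10. The submitters' processing notes also name bcl2fastq and Seurat 4.3.0. The deposited values are raw UMI counts per gene and barcode. The annotation release was not given in the sources used here. Positions were taken from GENCODE M21, in which 32235 of 32285 gene identifiers were found, and sequences from RefSeq.

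Barcodes with 200 to 7500 genes and at most 10% mitochondrial UMIs were kept (Python 3.11.15). UMIs were summed over the selected neurons per library and expressed as CPM. Log2 ratios have exact conditional binomial intervals, CPM exact Poisson intervals, shares exact Clopper-Pearson intervals, and a difference of shares combines both. With 1 library per group no test was made. Doublets were called by Scrublet in scanpy 1.11.5 (91 control and 164 mutant cells, 1 and 4 of them selected neurons) and kept. Ratios and thinning were tested on simulated data. TMM factors came from edgeR 4.0.16 and size factors from DESeq2 1.42.0.

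Named genes were the 12 highest and 12 lowest by the bound nearest 0 (leaving out Xist, Tsix, Y-linked, haemoglobin and mitochondrial genes, Gm and Rik models, and genes with 50% or more of their UMIs in 10 cells), called members of each list and its 2 to 4 most abundant others, Slc17a6, Stmn2, Robo3, the Tfap2 family, and the 5 genes most like Robo3. The selected neurons, lists and tests were chosen with earlier results of these data known. The LIM groups, and the genes and marker pairs named for them, were picked after their values were seen. Drgx is listed as Prrxl1 in the files. Ddit3, listed under a duplicated symbol, was left out. Some genes that met the rule are not reported here.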

Additional observations from a re-analysis of the deposited data

Results flagged for a closer look

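Genes called in the selected neurons that differed by 1.5-fold or more the other way in other neurons of the same libraries, with both intervals clear of 0, were picked out. The difference between kinds of neuron was not tested, since each kind had 1 library per group. Ddc was at a log2 ratio of 1.88 in the selected neurons and -0.59 (-0.97 to -0.21) in the Gad neurons, and Pcdh17 at 0.65 and -0.83 (-1.18 to -0.48). Hoxd4 was at -0.67 and 1.5 (0.53 to 2.63), and Calb1 at -0.60 and 0.78 (0.12 to 1.49). The Gad neurons held few UMIs of these genes, 10 in the control and 65 in the mutant for Hoxd4 and 24 and 95 for Calb1. Top2a was at -0.63, against 0.68 (0.34 to 1.03) in the Gad neurons and 1.29 (0.98 to 1.62) in the Barhl1/Atoh1/Evx1 neurons. Of the selected neurons, 7 control and 11 mutant cells had 2 or more UMIs of Top2a. Cdk1 was at -0.66 against 1.40 (0.90 to 1.93) in the Barhl1/Atoh1/Evx1 neurons, and Tac1 at -1.73 against 4.72 (2.82 to 7.79) there. The value of 4.72 came from 2 control and 82 mutant UMIs. Without the 10 richest cells of each library Tac1 was at 1.21 in the selected neurons, so the directions were then no longer opposite. The ratios of Calb1 and Hoxd4 in the selected neurons reached 1.5-fold in 7 of 12 alternatives each, and came to -0.15 and -0.02 at the smallest. Top2a reached it in 10 of 13, Pcdh17 in 10 of 13 and Cdk1 in 11 of 13.

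Uty, Kdm5d, Eif2s3y and Ddx3y, on the Y chromosome and left out of the rule for named genes, together had 496 UMIs in the mutant neurons and 0 in the control neurons.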

How the results depend on the processing

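No paired analysis was possible because each group had 1 library, and for the same reason no replicate could be left out. The share of selected neurons was higher in the mutant under all 4 alternatives, by 1.47 points when cells were thinned first, where 340 control and 526 mutant cells were too shallow. The count of called genes, 195, depended on the filter: it was 820 (453 higher, 367 lower) at 30 UMIs, 5764 (3159 and 2605) with no filter, and 90 (53 and 37, of 4338 genes) in thinned neurons. Under 8 other alternatives and 1 added after seeing the data it ran from 159 to 237. The Hox median moved to -0.79 with region shares held. The median of the Tfap2 family, -0.70 over 3 genes, was -0.12 under the stricter gate, -0.28 without neurons with a Hox UMI, and 0.29 with no filter, which adds Tfap2c and Tfap2e from few counts. That of the inhibitory markers, -0.30 over 3 genes, was -0.0034 in thinned neurons and 0.063 without Hox neurons. The other 243 of 249 list values stayed within a band between the median lower and median upper counting bounds of the list's genes. That band is not an interval of the list median itself, so it does not measure how stable the median was. Of 55 named called genes, between 42 and 55 stayed past 1.5-fold under the alternatives in which all could be computed. Of the named called genes 4 changed sign, Tlx3 (2.36), Tac1 (1.21) and Cdkn1a (2.06) without the 10 richest cells and Tfap2a (0.97) without Hox neurons. Sign changes of named genes that were not called were not counted. The cause of these shifts was not tested. For genes near 100 UMIs the interval was about as wide as 1.5-fold on either side (Hoxa4, -2.23 to -1.02), so smaller differences were not detectable at this depth.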
